A study of Mus musculus with 6 samples.

Results

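The genes described here are the Wnt ligands, their receptors, the secreted and membrane inhibitors of the pathway, and its nuclear factors with the target Axin2, as read in adult aortic endothelial cells (EC) with and without added Meis1. They were picked by gene symbol: every listed Wnt and Frizzled gene, with Lrp5, Lrp6, Rspo3, Dkk1, Dkk2, Dkk3, Sfrp1, Sfrp2, Nkd1, Nkd2, Rnf43, Znrf3, Axin2, Lef1, Tcf7, Tcf7l1 and Tcf7l2. This gave 46 of the 54429 genes of the deposited table. There were 20 ligands (19 Wnt genes and the R-spondin Rspo3), 12 receptors, 9 antagonists or feedback inhibitors, and 5 genes in the group of TCF/LEF factors and Axin2.

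The study addressed the start of the hemogenic program in endothelium, and this experiment asked what Meis1, a homeobox transcription factor, changes in EC that normally carry little of it. Commercial primary aortic EC from adult wild-type C57BL/6 mice received a lentiviral vector, either with Meis1 (Meis1-OE) or as the YFP control (YFP-CTRL), after plating of 100000 cells. Transduction ended after 48 h, and cells positive for YFP, CD31 and VEC were sorted at 72 h, put back into culture and grown until confluent before RNA was taken from 300000 cells. Both groups therefore share the YFP vector, the sort and the expansion, and the cells are adult EC in culture. Each group had 3 libraries of ribodepleted total RNA, called A, B and C as in the deposited table, and the study describes them as independent replicates. Wherever 3 values stand together for a group, they are in the order A, B, C.

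Total counts ran from 34176642 to 47956605 per library. Meis1 stood at 2961 to 3477 TMM-normalized CPM (counts scaled to a common library size) in Meis1-OE libraries and at 1.15 to 1.87 CPM in YFP-CTRL libraries, with reads of vector and endogenous gene counted together. YFP-CTRL library C stood nearer to the Meis1-OE libraries than A and B did: its proliferation score, the mean log2(CPM + 1) of 15 proliferation genes, was 6.56, against 4.46 in YFP-CTRL A, 5.38 in YFP-CTRL B and 6.58 to 6.64 in Meis1-OE libraries. The summed level of 10 endothelial markers was 3509 to 4367 CPM in Meis1-OE and 4526 to 6315 CPM in YFP-CTRL libraries. These markers did not move together. By edgeR, Cldn5 was higher in Meis1-OE (log2 fold change 1.81, adjusted p = 0.0398), Tek was lower (-0.78, adjusted p = 0.0351), and the others did not pass. Of these others, Kdr (-1.23, adjusted p = 0.0504 by edgeR) and Cdh5 (-0.70, 0.0535) lay below every control in all Meis1-OE libraries. Esam (0.37, 0.269) lay above every control, and the rest overlapped. For 10 mesenchymal markers the summed level was only 15.8 to 17.8 CPM and 34.9 to 54.2 CPM, with Lum at 0 throughout. Most of that sum came from Pdgfra and, in YFP-CTRL library C, from Acta2, while Col1a1, Col1a2 and Col3a1 were at no more than 0.286 CPM in any library. Among 9 macrophage markers, C1qa, C1qb, Tyrobp and Adgre1 had no count, and the summed level of the list was 69.8 to 106 CPM and 65.1 to 140 CPM. Cd68 made up nearly all of this sum, at 69.3 to 105 CPM and 64.7 to 140 CPM, and Ptprc had at most 4 counts. For 5 lymphatic endothelial markers the sum was 178 to 187 CPM and 280 to 558 CPM, with Pdpn at 0. Lyve1 and Flt4 made up nearly all of this. Lyve1 was lower in Meis1-OE (log2 fold change -1.84, adjusted p = 0.0301 by edgeR), Flt4 did not pass, and Prox1 had at most 2 counts. In bulk RNA, fewer cells that express a gene and less RNA of it per cell cannot be told apart.

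Wnt proteins are secreted lipid-modified ligands that bind a Frizzled receptor, together with Lrp5 or Lrp6 in the branch that stabilizes beta-catenin. Beta-catenin then enters the nucleus and acts with TCF/LEF factors on targets such as Axin2, while Wnt5a and Wnt5b are best known for signalling without beta-catenin. In endothelium, Wnt signalling is known for its part in vessel growth, in retinal vessels through Fzd4, and in the blood-brain barrier.

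Promoter windows of genes that the results turn on are shown because they let the letters before an annotated transcript start be read beside the values. The RefSeq promoter table of build GRCm38.p6, the assembly behind the mm10 named in the submitters' processing notes, had 41 windows for 32 of the 46 genes and held no entry for Wnt5a, Rspo3 or Fzd6. Each line holds the 250 bases before an annotated transcript start, 5' to 3' on the strand of the gene, for Dkk2 (chr3:132085042-132085291, plus strand), Wnt9b (chr11:103749822-103750071, minus strand), Axin2 (chr11:108920099-108920348, plus strand) and the only Wnt5b window of 3 that held a searched motif (chr6:119449387-119449636, minus strand). The windows of Wnt9b, Axin2 and Wnt5b lie within the spans of their genes given below, and which start these cells use was not tested. Capitals mark a match to the TCF/LEF core.
Dkk2: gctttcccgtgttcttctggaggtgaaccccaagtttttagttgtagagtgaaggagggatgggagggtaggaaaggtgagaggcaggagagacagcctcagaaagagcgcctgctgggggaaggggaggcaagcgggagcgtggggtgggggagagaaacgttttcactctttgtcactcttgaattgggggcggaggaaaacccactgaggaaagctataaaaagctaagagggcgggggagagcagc
Wnt9b: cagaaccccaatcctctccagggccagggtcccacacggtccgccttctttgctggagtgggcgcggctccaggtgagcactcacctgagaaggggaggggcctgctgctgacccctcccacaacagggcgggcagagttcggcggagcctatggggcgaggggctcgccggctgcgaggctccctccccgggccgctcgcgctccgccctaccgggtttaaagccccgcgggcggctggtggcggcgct
Axin2: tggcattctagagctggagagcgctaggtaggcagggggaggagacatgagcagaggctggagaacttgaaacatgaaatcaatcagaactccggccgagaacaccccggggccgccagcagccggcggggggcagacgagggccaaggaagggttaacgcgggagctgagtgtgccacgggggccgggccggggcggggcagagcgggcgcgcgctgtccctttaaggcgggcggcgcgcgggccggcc
Wnt5b: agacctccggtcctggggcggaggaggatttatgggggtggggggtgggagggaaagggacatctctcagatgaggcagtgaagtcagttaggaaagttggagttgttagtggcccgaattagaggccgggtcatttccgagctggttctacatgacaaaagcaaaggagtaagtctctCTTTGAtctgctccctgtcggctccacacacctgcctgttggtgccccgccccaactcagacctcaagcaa

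The TCF/LEF core CTTTGA, searched on both strands, occurred in 5 of the 41 windows (12.2%) and in 13.8% of all 32851 windows of the same length. The Meis core TGACAG, also on both strands, occurred in 6 of 41 (14.6%) and in 15.9% of all windows. The end of the first core can overlap the start of the second, and a match only describes the sequence. The Wnt5b match began 71 bases before the transcript start, and the windows of Dkk2, Wnt9b and Axin2 held neither motif. The 41 windows were rich in G and C, with a median of 66.4% against 52.4% over all windows.

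Several ligands and the inhibitor Dkk2 were higher in Meis1-OE EC, and no Wnt gene passed the edgeR test in the other direction. Of the 46 genes, 38 had a count in any library, 28 had over 3 counts in at least 1 library, and 22 passed the filter on low counts of edgeR. In the edgeR quasi-likelihood fit, with Benjamini-Hochberg adjustment over all genes, 6 of the 22 rose at an adjusted p under 0.05 and 0 fell, against a background of 4.14% of all 16065 tested genes that rose and 2.73% that fell. These 6 were Dkk2, Wnt5a, Rspo3, Wnt9b, Wnt5b and Fzd6, and at an unadjusted p under 0.05 there were 9 higher and 2 lower. The share of all genes at an unadjusted p under 0.05 was not counted. Such counts, here and below, are therefore a description only. DESeq2 called 7 higher, these 6 and Axin2, and 1 lower, Fzd5, of 25 tested, beside 6.18% of its 18187 tested genes higher and 6.13% lower. Of the 6, Rspo3, Wnt9b and Wnt5b passed the filter through their Meis1-OE libraries alone, so the share of 27.3% among the tested genes is a description only. All 3 Meis1-OE libraries lay above all 3 YFP-CTRL libraries for 9 of the 22 genes and below them for 3, where the background was 17.2% and 15.9% of all tested genes. The median log2 fold change of the 22 was 0.21, beside 0.01 over all tested genes. Rspo3, Wnt9b and Wnt5b are among the 9 and among the 22, so this count and this median are a description only as well.

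**Figure D1:**
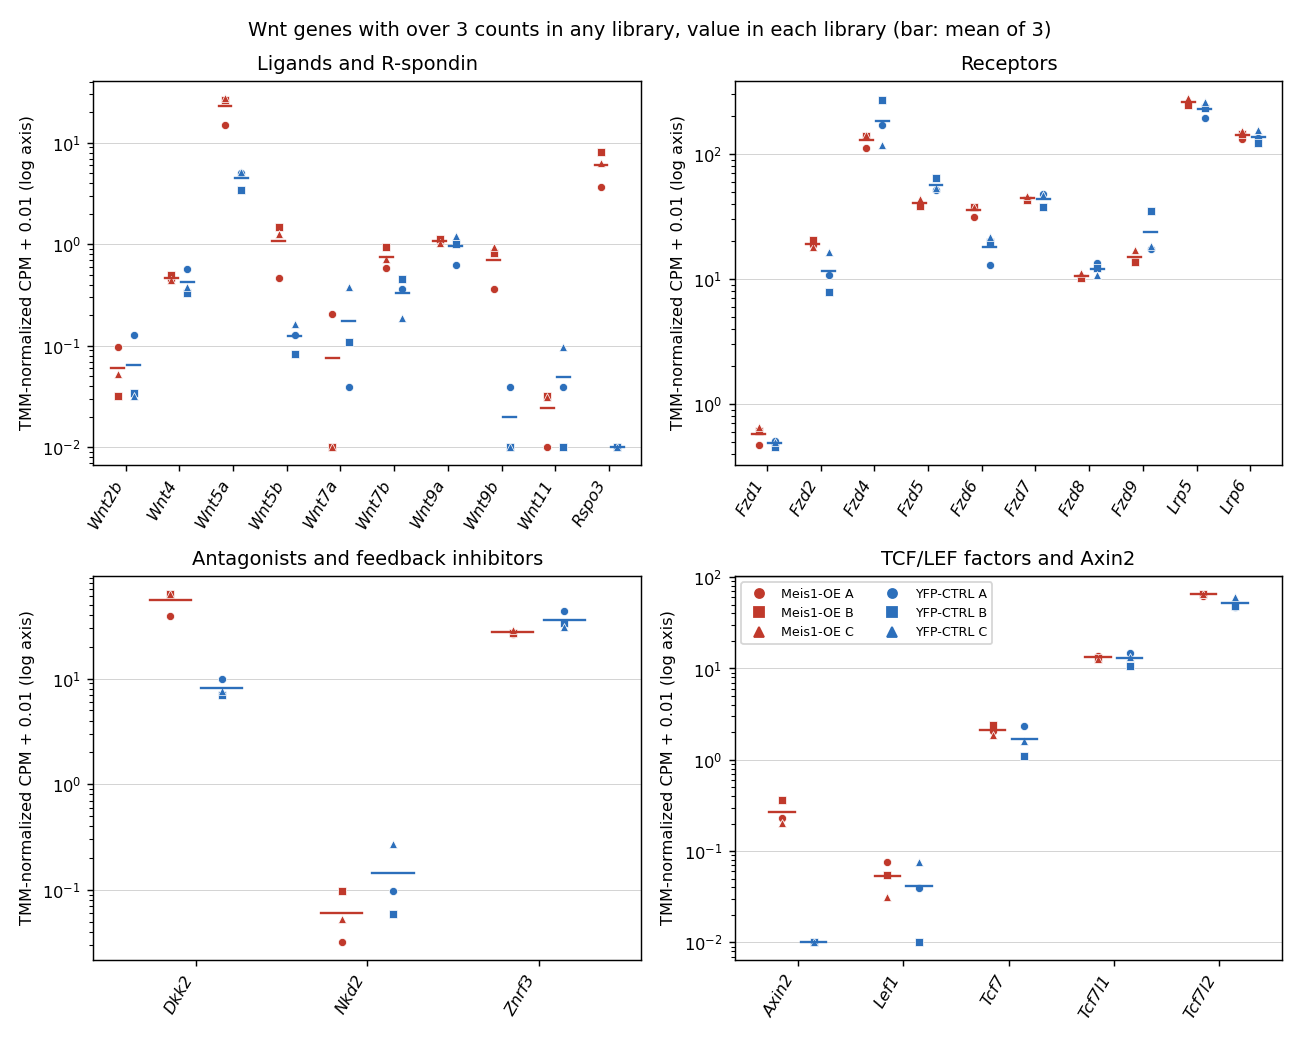
TMM-normalized CPM plus 0.01 (log axis) of the 28 Wnt genes with over 3 counts in any library, in 4 panels by role, with Meis1-OE libraries in red and YFP-CTRL libraries in blue, a symbol for each library and a bar at the mean of 3. Wnt5a, Wnt5b, Wnt9b, Rspo3 and Dkk2 show red points well above the blue ones, while most receptors show the 2 colours at like heights.

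The Wnt ligands were few and scarce in YFP-CTRL EC. With Rspo3 counted among them, 7 ligands were tested and 4 were higher in Meis1-OE, beside 4.14% of all tested genes. Rspo3, Wnt9b and Wnt5b of these 4 passed the filter through their Meis1-OE libraries alone, so this share is a description only. Wnt5a, a ligand known for signalling without beta-catenin and for cell movement, had the highest mean level per kilobase among the ligands of both groups. It was counted 690, 1199 and 1267 times in Meis1-OE against 171, 138 and 232 times in YFP-CTRL, or 15.1, 26.4 and 27.4 CPM against 5.03, 3.38 and 5.11 CPM. The groups did not overlap, and Meis1-OE library A was the lowest of its group. The gene, at chr14:28504543-28527448, rose 5.09-fold (95% interval 3.22 to 8.05, log2 fold change 2.35, standard error 0.28, adjusted p = 0.0073 by edgeR). It kept its call under every alternative run, with an adjusted p of at most 0.0453.

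Rspo3, an R-spondin that strengthens Wnt signals by removing the ubiquitin ligases Rnf43 and Znrf3 from the membrane, went from no count to a clear signal. It had 167, 372 and 291 counts in Meis1-OE, or 3.65, 8.20 and 6.28 CPM, and 0 counts in each YFP-CTRL library. With 3 counts taken as a floor over the control group, it was 242-fold higher in Meis1-OE EC (830 counts against 0). The lower end of the 95% counting interval for Rspo3 was 196-fold. Library A was again the lowest of the Meis1-OE libraries, and no control library held a read of this gene. The adjusted p from edgeR was 0.0048, and it was at most 0.0312 under every alternative that kept the gene. Rspo3 lies at chr10:29453106-29535867.

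Wnt9b, a ligand of the beta-catenin branch known from kidney development, had 16, 37 and 43 counts in Meis1-OE libraries against 1, 0 and 0 counts in YFP-CTRL. The ratio of the summed counts, 96 against 1, was 84.0 with a 95% counting interval of 14.7 to 3351, and the adjusted p was 0.0116 by edgeR. The counts of the Meis1-OE group were all above those of the control group, although even the highest was under 1 CPM. The gene spans chr11:103727362-103775272, where its span overlaps that of Wnt3, itself at no more than 1 count in any library.

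Wnt5b, the closest relative of Wnt5a, had 21, 67 and 58 counts in Meis1-OE against 4, 3 and 7 counts in YFP-CTRL. These counts were 0.459, 1.48 and 1.25 CPM against 0.118, 0.074 and 0.154 CPM. The groups did not overlap, with Meis1-OE library A lowest of its group, as it was for Wnt5a, Rspo3 and Wnt9b. Wnt5b rose 8.97-fold (3.60 to 22.3, log2 fold change 3.16, standard error 0.56, adjusted p = 0.0221 by edgeR). Its span, chr6:119432531-119544824, overlaps that of Fbxl14, and no source says whether reads were counted by strand. Fbxl14 was counted 3718, 3345 and 3954 times in Meis1-OE against 2459, 2207 and 3394 times in the controls, a log2 fold change of 0.26 that did not pass (adjusted p = 0.317 by edgeR).

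The calls of Wnt9b and Wnt5b did not hold in each fit that left out 1 library. Without Meis1-OE library B, Meis1-OE library C or YFP-CTRL library B, the edgeR adjusted p was 0.0647, 0.0587 and 0.0659 for Wnt9b and 0.106, 0.100 and 0.103 for Wnt5b. With the proliferation score as a covariate, the edgeR adjusted p was 0.109 for Wnt5b, at a log2 fold change of 2.89, and 0.0417 for Wnt9b.

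Wnt7b, known to act on brain endothelium, was at 0.569, 0.925 and 0.713 CPM in Meis1-OE libraries against 0.353, 0.441 and 0.176 CPM in YFP-CTRL libraries. Its groups did not overlap, but the log2 fold change of 1.19 (95% interval 0.24 to 2.14) had an adjusted p of 0.123 by edgeR. Wnt4 and Wnt9a, with log2 fold changes of 0.12 (-0.64 to 0.89) and 0.16 (-0.55 to 0.88), overlapped between the groups, and these intervals still allow a change of near 1 on the log2 scale. Wnt4 lay between 0.319 and 0.559 CPM over the 6 libraries and Wnt9a between 0.618 and 1.21 CPM.

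The other 13 ligands could not be tested at this depth. Wnt2, Wnt8a and Wnt16 had no count, which allows up to 3 counts in each library, and Wnt1, Wnt3, Wnt3a, Wnt6, Wnt8b, Wnt10a and Wnt10b had 1 to 3 counts at most. Wnt2b had 4, 1 and 2 counts in Meis1-OE against 4, 1 and 1 counts in YFP-CTRL libraries. Wnt11 had 0, 1 and 1 counts against 1, 0 and 4 counts. Wnt7a had 9, 0 and 0 counts in Meis1-OE against 1, 4 and 17 counts in YFP-CTRL, so its reads lay mostly in 1 library of each group.

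Divided by exon length, the ligands of Meis1-OE EC were led by Wnt5a, at 2.94 ± 0.873 CPM per kilobase (SD, n = 3), and Rspo3, at 2.52 ± 0.953 CPM per kilobase (SD, n = 3). The Wnt5a and Rspo3 levels overlapped between libraries. Next came Wnt5b at 0.405 ± 0.204, Wnt9a at 0.319 ± 0.0167, Wnt7b at 0.167 ± 0.0406, Wnt9b at 0.154 ± 0.0679 and Wnt4 at 0.108 ± 0.00691 CPM per kilobase (SD, n = 3 each). In YFP-CTRL EC the order was Wnt5a at 0.576 ± 0.125, Wnt9a at 0.284 ± 0.0903, Wnt4 at 0.0995 ± 0.0301 and Wnt7b at 0.0733 ± 0.0306 CPM per kilobase, with all others lower (SD, n = 3 each). Of the 9 neighbouring pairs among the 10 ligands with over 3 counts, 5 overlapped between libraries in Meis1-OE and 7 in YFP-CTRL EC, so much of the order among the scarce ligands is not resolved.

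**Figure D2:**
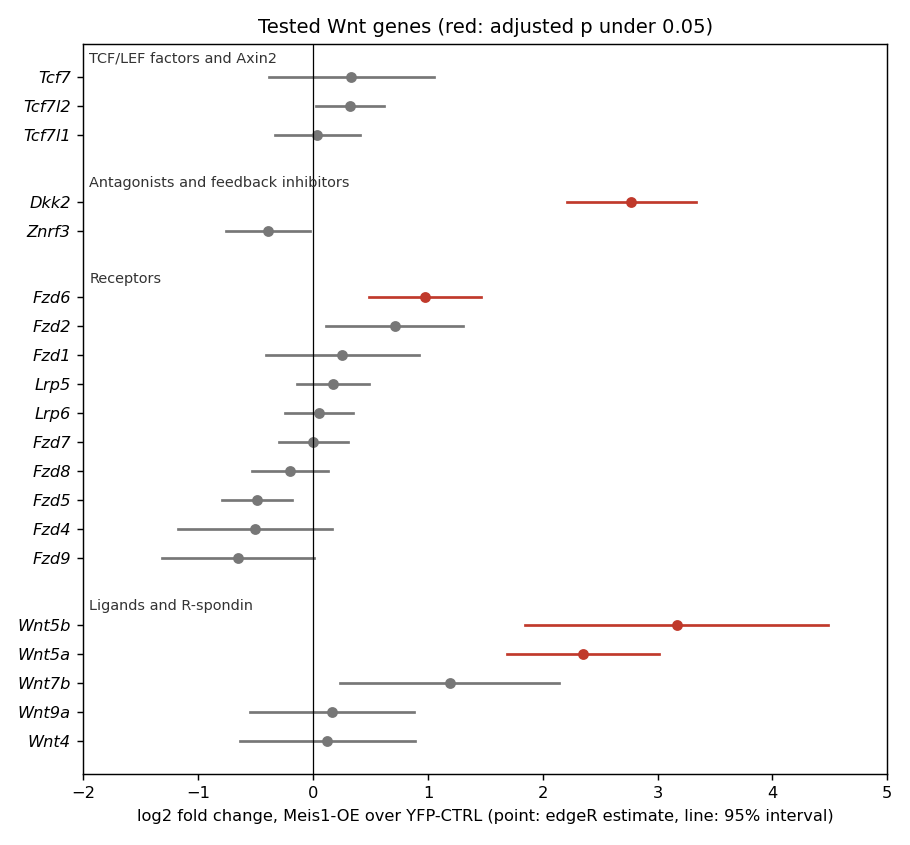
Log2 fold change of Meis1-OE over YFP-CTRL (x axis) for 20 of the 22 tested Wnt genes, grouped by role, with points at the edgeR estimate, lines for its 95% interval and red for an adjusted p under 0.05. Rspo3 and Wnt9b, whose controls held 0 and 1 counts, are not drawn, and Dkk2, Wnt5a, Wnt5b and Fzd6 are the red points, all to the right of 0.

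The Frizzled and Lrp receptors were readily detected in both groups, and only 1 of them passed the test. Of 12 receptors, Fzd3 and Fzd10 had no count and 10 were tested, with a median log2 fold change of 0.03. DESeq2 called 1 higher and 1 lower, beside 6.18% and 6.13% of its tested genes. By edgeR, 1 was lower at an unadjusted p under 0.05. At an adjusted p under 0.05 by edgeR, 1 rose and 0 fell, beside 4.14% and 2.73% of all tested genes. The one that rose was Fzd6, a Frizzled known for planar cell polarity, at chr15:39006149-39038192. It was counted 1417, 1719 and 1750 times in Meis1-OE against 436, 805 and 980 times in YFP-CTRL, or 31.0, 37.9 and 37.8 CPM against 12.8, 19.7 and 21.6 CPM. The groups did not overlap and YFP-CTRL library A was the lowest, with the lowest proliferation score too. Fzd6 rose 1.97-fold (1.40 to 2.76, log2 fold change 0.98, standard error 0.21, adjusted p = 0.0386 by edgeR).

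The Fzd6 call was less stable than its direction. Its edgeR adjusted p was 0.0900 without Meis1-OE library A, 0.180 without B, 0.170 without C and 0.113 without YFP-CTRL library B. With the proliferation score as a covariate the log2 fold change was 0.62 (edgeR adjusted p = 0.120). Gm26704, a gene that overlaps the span of Fzd6, had 7 to 25 counts per library, far fewer than Fzd6.

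Fzd2 was at 18.6, 20.3 and 18.2 CPM in Meis1-OE against 10.7, 7.87 and 16.3 CPM in YFP-CTRL. The groups did not overlap and YFP-CTRL library C was the control nearest to Meis1-OE. The log2 fold change of 0.71 (0.11 to 1.31) had an adjusted p of 0.137 by edgeR, and leaving out YFP-CTRL library C gave 1.03 (adjusted p = 0.00409). Fzd1, Fzd7 and Fzd8 overlapped between the groups, with log2 fold changes of 0.26 (-0.41 to 0.92), 0.00 (-0.30 to 0.31) and -0.20 (-0.53 to 0.13).

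Fzd4, Fzd5 and Fzd9 had negative log2 fold changes that did not pass. Fzd4, which also binds the non-Wnt ligand norrin in the retina, was at 111, 138 and 141 CPM in Meis1-OE libraries against 169, 268 and 117 CPM in YFP-CTRL. The groups overlapped through YFP-CTRL library C, and the log2 fold change was -0.51 (-1.17 to 0.16, adjusted p = 0.302 by edgeR). Leaving that library out gave -0.77 (adjusted p = 0.0353 by edgeR). Leaving out YFP-CTRL library B instead gave -0.13 (adjusted p = 0.745 by edgeR), and Fzd4 passed without no other library.

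Fzd5 was at 38.2, 38.3 and 43.8 CPM in Meis1-OE libraries, all below the 51.3, 63.8 and 53.7 CPM of the controls. Its log2 fold change was -0.49 (-0.79 to -0.19, adjusted p = 0.0679 by edgeR). It passed with YFP-CTRL library C left out (adjusted p = 0.0222 by edgeR) and by DESeq2 on all 6 libraries (adjusted p = 0.0377). Without any other 1 library the edgeR adjusted p of Fzd5 was 0.0562 to 0.294. Fzd9 was at 14.3, 13.8 and 17.0 CPM against 17.2, 35.2 and 18.5 CPM, groups that only just did not overlap, with a log2 fold change of -0.65 (-1.31 to 0.01, adjusted p = 0.194 by edgeR).

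The co-receptors Lrp5 and Lrp6 were abundant in both groups. Lrp5 was at 250.5, 247 and 277 CPM in Meis1-OE against 194, 234 and 259 CPM in YFP-CTRL libraries. Lrp6 was at 132, 144 and 151 CPM against 134, 122 and 156 CPM. Both overlapped between the groups, and the intervals of their log2 fold changes, 0.17 (-0.14 to 0.48) and 0.05 (-0.24 to 0.35), end at 1.40-fold and 1.27-fold.

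Per kilobase of exon, Lrp5 and Fzd4 led the receptors in both groups. In Meis1-OE EC they were at 49.9 ± 3.20 and 35.3 ± 4.54 CPM per kilobase (SD, n = 3), followed by Lrp6 at 14.5 ± 0.969, Fzd7 at 9.16 ± 0.305, Fzd6 at 8.71 ± 0.967, Fzd9 at 6.55 ± 0.750, Fzd5 at 5.80 ± 0.461, Fzd2 at 5.24 ± 0.309, Fzd8 at 3.14 ± 0.148 and Fzd1 at 0.130 ± 0.0222. Neighbours in this order overlapped between libraries for Fzd7 and Fzd6, for Fzd9 and Fzd5, and for Fzd5 and Fzd2, and the other 6 of 9 pairs did not overlap. In YFP-CTRL EC, Fzd4 at 50.1 ± 20.9 and Lrp5 at 44.3 ± 6.31 CPM per kilobase overlapped, and Lrp6 followed at 14.0 ± 1.78 (SD, n = 3). Below them came Fzd9 at 10.3 ± 4.37, Fzd7 at 9.15 ± 1.21, Fzd5 at 8.14 ± 0.963, Fzd6 at 4.42 ± 1.13, Fzd8 at 3.60 ± 0.399, Fzd2 at 3.21 ± 1.19 and Fzd1 at 0.109 ± 0.00700 CPM per kilobase. Only 3 of the 9 neighbouring pairs stayed apart there: Lrp5 from Lrp6, Fzd5 from Fzd6, and Fzd2 from Fzd1. By mean level, Fzd6 stood 7th of 10 in YFP-CTRL and 5th of 10 in Meis1-OE EC.

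**Figure D3:**
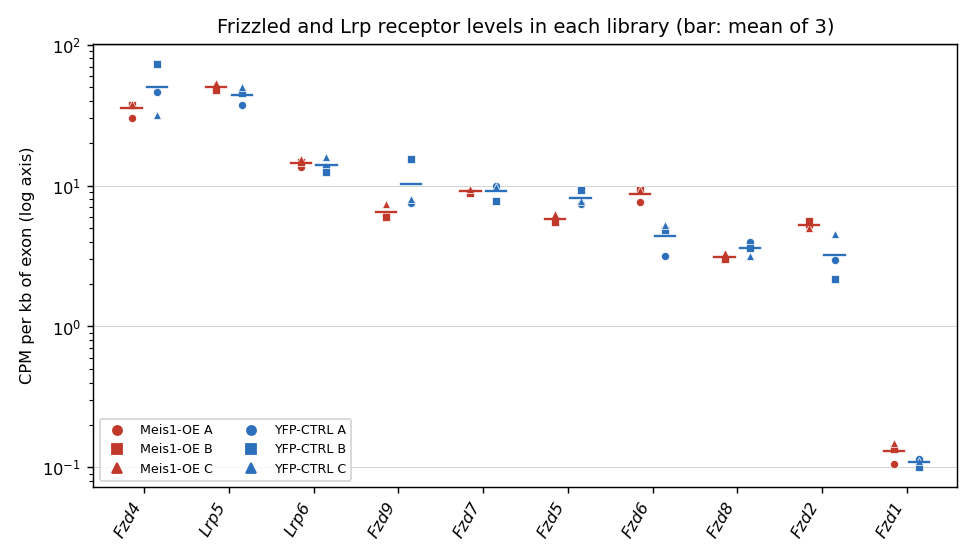
Level of the 10 receptors with counts in CPM per kilobase of exon (log axis), one point per library with Meis1-OE in red and YFP-CTRL in blue. Lrp5, Fzd4 and Lrp6 are at the top in both groups and Fzd1 is far below the rest.

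Among the inhibitors of the pathway, Dkk2 rose most firmly of all the genes described here, while Znrf3 did not pass. Dkk2, a secreted protein that binds Lrp5 and Lrp6 and mostly blocks Wnt signalling, lies at chr3:132085266-132180304. It was counted 1795, 2856 and 2945 times in Meis1-OE against 333, 282 and 344 times in YFP-CTRL, or 39.3, 62.9 and 63.6 CPM against 9.80, 6.91 and 7.57 CPM. The groups did not overlap, with Meis1-OE library A lowest of its group and YFP-CTRL library A highest of the controls. Dkk2 rose 6.83-fold (4.64 to 10.1, log2 fold change 2.77, standard error 0.24, adjusted p = 0.00232 by edgeR). It kept its call under every alternative run, with an adjusted p of at most 0.0229, and without YFP-CTRL library C or with the proliferation covariate its log2 fold change was 2.72 and 2.96. Per kilobase of exon it was at 14.96 ± 3.75 CPM in Meis1-OE and 2.19 ± 0.410 CPM in YFP-CTRL cells (SD, n = 3), above the mean of every ligand in the same group.

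Znrf3, a membrane ubiquitin ligase that removes Frizzled receptors and is itself removed through R-spondins, was at 26.4, 26.8 and 29.0 CPM in Meis1-OE against 43.9, 33.6 and 30.6 CPM in YFP-CTRL. The groups did not overlap, with YFP-CTRL library C nearest to Meis1-OE. The log2 fold change of -0.39 (-0.76 to -0.03) had an adjusted p of 0.168 by edgeR, and leaving out YFP-CTRL library C gave -0.51 (adjusted p = 0.0225). Without any other 1 library the edgeR adjusted p of Znrf3 was 0.240 to 0.427. The other 7 inhibitors were not tested: Dkk1, Sfrp2 and Nkd1 had no count, Dkk3, Sfrp1 and Rnf43 had at most 3 counts, and Nkd2 had 1, 4 and 2 counts against 3, 2 and 12 counts.

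The TCF/LEF factors, which bind DNA for beta-catenin, were led by Tcf7l2, and none passed the test. Of the 5 genes in this group 3 were tested. By edgeR 0 passed, beside 4.14% higher and 2.73% lower of all tested genes. DESeq2 called Axin2 alone, as higher, beside 6.18% of its tested genes. At an unadjusted p under 0.05 by edgeR there was 1 gene. The 1 gene was Tcf7l2, at 62.2, 66.1 and 66.1 CPM in Meis1-OE against 47.1, 48.5 and 59.8 CPM in YFP-CTRL. All Meis1-OE libraries were above all controls, with a log2 fold change of 0.32 (0.02 to 0.62) and an edgeR adjusted p of 0.164. It passed with YFP-CTRL library C left out (0.43, adjusted p = 0.00968 by edgeR). Without any other 1 library the edgeR adjusted p of Tcf7l2 was 0.254 to 0.424. Tcf7l1 and Tcf7 overlapped between the groups, with log2 fold changes of 0.04 (-0.33 to 0.40) and 0.33 (-0.39 to 1.05), and Lef1 had at most about 3 counts in any library.

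Per kilobase of exon, Tcf7l2 was at 7.41 ± 0.258 CPM in Meis1-OE and 5.93 ± 0.800 CPM in YFP-CTRL cells, Tcf7l1 at 3.97 ± 0.183 and 3.87 ± 0.633, and Tcf7 at 0.752 ± 0.0918 and 0.599 ± 0.221 CPM (SD, n = 3 each). The factors therefore kept the same order in both groups, with no overlap between these 3 in either.

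Axin2, a scaffold protein of the beta-catenin destruction complex and a widely used readout of beta-catenin signalling, had 10, 16 and 9 counts in Meis1-OE and 0 counts in each YFP-CTRL library. With the same floor of 3 counts over the control group it was 10.2-fold higher in Meis1-OE EC (35 counts against 0). The lower end of the 95% counting interval for Axin2 was 7.87-fold. Every Meis1-OE library had reads and no control did, but the level was low, at 0.0464 ± 0.0155 CPM per kilobase (SD, n = 3). The gene, at chr11:108917828-108950783, fell outside the filter of the edgeR fit. With no filter its edgeR adjusted p was 0.0184, and by DESeq2 it was 0.00222. It also entered some edgeR fits that left out 1 library, but not those without Meis1-OE library A or B. The adjusted p by edgeR was 0.0376 without YFP-CTRL library A, 0.0117 without YFP-CTRL library C, 0.0771 without YFP-CTRL library B and 0.0957 without Meis1-OE library C. With 0 counts in the controls, Axin2 passed the filter there through its Meis1-OE libraries alone, so these values are a description only.

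**Figure D4:**
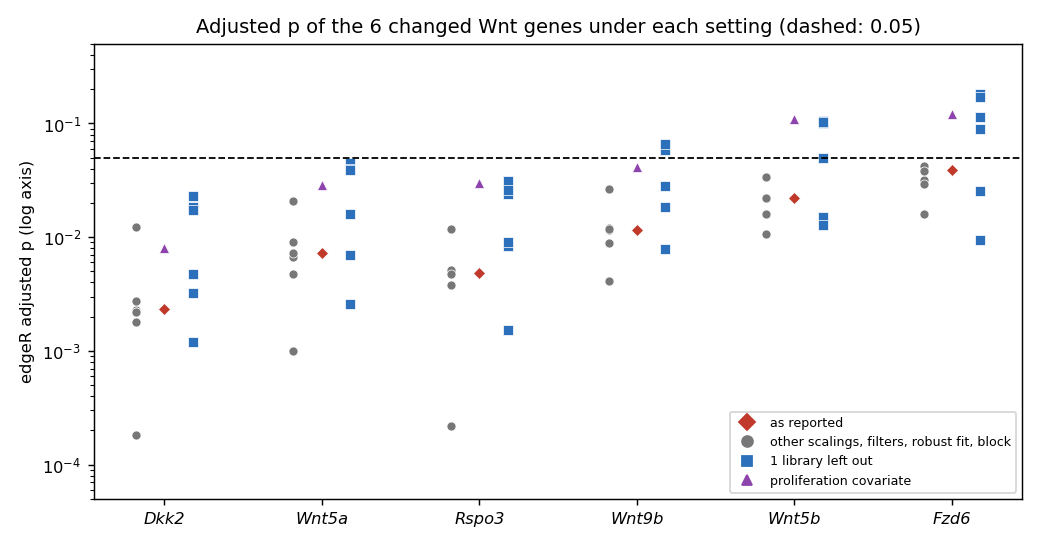
Adjusted p (log axis) of the 6 genes that rose, under each edgeR setting, with red diamonds for the values as reported, gray circles for other scalings, filters, a robust fit and the block, blue squares for fits without 1 library, purple triangles for the proliferation covariate and a dashed line at 0.05. DESeq2 values are not drawn, and Dkk2, Wnt5a and Rspo3 stay under the line throughout while Fzd6, Wnt5b and Wnt9b cross it.

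Leaving out YFP-CTRL library C, the control with the highest proliferation score, moved the count of Wnt genes called to 9 higher and 3 lower of 23 tested. All genes moved as well, to 16.5% higher and 15.2% lower of 16443 tested. The 9 were the 6 named above with Axin2, Fzd2 and Tcf7l2, and the 3 were Fzd4, Fzd5 and Znrf3. With the proliferation score as a covariate, 4 of the 22 were higher (Dkk2, Wnt5a, Rspo3 and Wnt9b), against 2.31% of all tested genes, and 0 were lower, against 1.88%. Rspo3 and Wnt9b, and in the count without YFP-CTRL library C also Wnt5b and Axin2, passed the filter through Meis1-OE libraries alone. These counts are therefore a description only.

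Outside these 46 genes, a list of 74 further genes of Wnt secretion, reception and response was measured in the same fit. Of 49 tested, 2 (4.08%) were higher and 6 lower by edgeR, beside 4.14% and 2.73% of all tested genes, with a median log2 fold change of 0.05. DESeq2 called 5 higher and 8 lower of 53, beside 6.18% and 6.13% of all genes. The receptor of R-spondins Lgr6, at chr1:134983300-135105374, had the largest of these changes. It was at 41.5, 36.3 and 34.9 CPM in Meis1-OE libraries against 1.24, 1.59 and 6.07 CPM in YFP-CTRL. The groups were far apart, with YFP-CTRL library C again the nearest control. Lgr6 rose 12.5-fold (4.89 to 32.0, log2 fold change 3.64, standard error 0.58, adjusted p = 0.0152 by edgeR). Without any 1 Meis1-OE library or YFP-CTRL library B its edgeR adjusted p was 0.061 to 0.0771, and its log2 fold change was 4.71 without YFP-CTRL library C and 2.69 with the proliferation covariate.

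Adgra2, also called Gpr124, which presents Wnt7 ligands to Frizzled in brain endothelium, fell on the log2 scale by 0.85 (adjusted p = 0.00969 by edgeR). It was at 343, 310 and 320 CPM in Meis1-OE against 526, 640 and 584 CPM in YFP-CTRL libraries, and its span overlaps that of Brf2, which had 414 to 501 counts per library. Apcdd1, a membrane inhibitor of Wnt signals, fell by 0.85 on the log2 scale as well (adjusted p = 0.041 by edgeR). Adgra2 did not pass without Meis1-OE library B or C (edgeR adjusted p 0.0822 and 0.0721), nor Apcdd1 without any 1 Meis1-OE library or YFP-CTRL library A (0.0592 to 0.19). Apcdd1 also did not pass on library totals (0.0688) or with the letter of the library as a block (0.0863). Over all tested genes, 4.14% were higher and 2.73% lower by edgeR, and 6.13% were lower by DESeq2. None of the 15 cytoplasmic and 2 secretion genes tested passed in the edgeR fit. At an unadjusted p under 0.05 there was 1 of each. DESeq2 called 1 of these genes, the casein kinase gene Csnk1e, as lower (a name given here after its value was seen). Among them, the beta-catenin gene Ctnnb1 had a log2 fold change of 0.15 (adjusted p = 0.491 by edgeR), Apc of the destruction complex -0.15 (0.344), and Wls, which carries Wnt proteins to the cell surface, 0.08 (0.779).

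Of the 10 nuclear genes tested, 0 rose and 2 fell by edgeR, beside 4.14% and 2.73% of all tested genes. Of the 10, 8 had a positive log2 fold change, with a median of 0.50 beside 0.01 over all tested genes. At an unadjusted p under 0.05 there were 5 higher and 2 lower by edgeR. DESeq2 called 2 higher, Bcl9 and Pygo1 (named after their values were seen), and 2 lower, beside 6.18% and 6.13% of its tested genes. The 2 that fell in both were Tle1 and Tle3, corepressors of the Groucho family that sit on TCF/LEF factors when beta-catenin is absent. Tle1 was at 11.3, 12.6 and 11.4 CPM in Meis1-OE against 32.6, 27.5 and 23.4 CPM in YFP-CTRL libraries, with a log2 fold change of -1.24 (adjusted p = 0.00771 by edgeR). For Tle3 it was -0.80 (adjusted p = 0.0476 by edgeR), and 132, 119 and 118 CPM stood against 250.2, 237 and 156 CPM. Both groups were apart for each gene, but Tle1 did not pass without Meis1-OE library B or C (0.0556 and 0.0582), and Tle3 passed in no fit without 1 library except that without YFP-CTRL library C (edgeR adjusted p 0.0965 to 0.216 in the others). With the proliferation covariate Tle3 was at -0.39 (adjusted p = 0.165 by edgeR), and it also missed the threshold on library totals (0.0869), with Gm26917 left out (0.053), with at least 10 counts per library (0.0523) and with the letter block (0.0615).

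**Figure D5:**
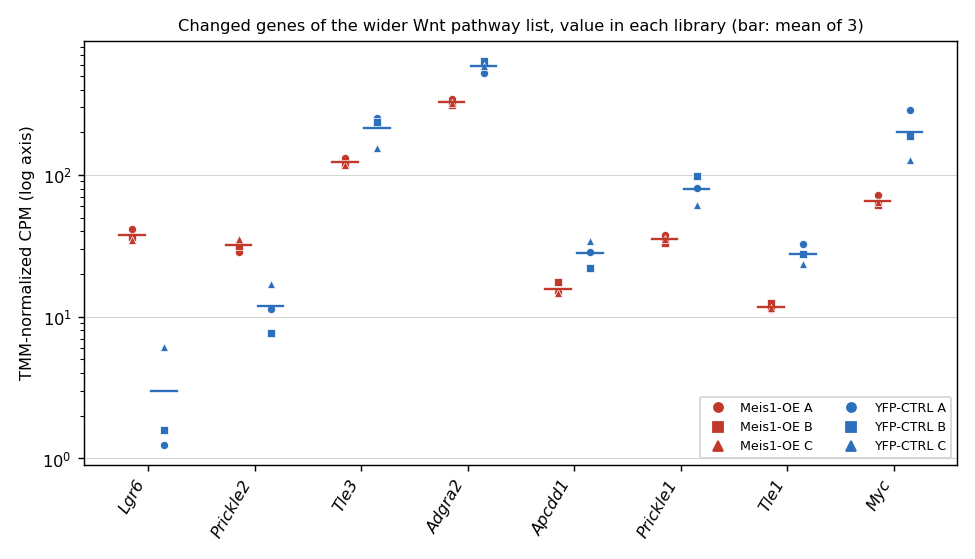
TMM-normalized CPM (log axis) in each library of the further pathway genes that passed the test, with Meis1-OE in red and YFP-CTRL in blue and a bar at the mean of 3. Lgr6 and Prickle2 are higher in Meis1-OE libraries, and Adgra2, Apcdd1, Tle1, Tle3, Prickle1 and Myc are lower.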

How the data were processed

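RNA-seq of 6 libraries was used. The deposited values are estimated counts per gene without normalization, for 54429 symbols; the submitters' processing notes name mm10, and the aligner, counter and annotation are not given in the sources used here. Counts that were not whole (7767 to 8411 genes per library, Wnt4, Lrp5, Lrp6, Lef1 and Lgr6 among them) were rounded, so reads shared with other genes leave these values uncertain. Groups came from the sample labels and library letters from the columns.

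The test was that of edgeR 4.0.16 in R 4.3.3 (TMM, filterByExpr, quasi-likelihood test, Benjamini-Hochberg over 16065 genes, threshold 0.05), after tests on simulated data. Standard errors came from the F statistic. Alternatives were DESeq2 1.42.0, its size factors, library totals, Gm26917 left out, a minimum of 10 counts per library or no filter, robust fitting, leaving out each library, the proliferation score as a covariate and a letter block. An exact permutation test of 3 against 3 cannot go below p = 0.1, so none was run. Intervals and floors of counts cover counting error only.

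Members and lists were chosen with earlier results of these data known. Named were all members with a count, Meis1, called genes of the further list, and Ctnnb1, Wls and Apc. Members without a count and overlapping genes were named after their values were seen. Exon lengths came from an annotation of build NCBIM37, so levels per kilobase are approximate, and promoters from RefSeq. Figures used Python 3.11.15 and matplotlib 3.10.9.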

Additional observations from a re-analysis of the deposited data

How the results depend on the processing

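Dkk2, Wnt5a and Rspo3 kept their call under every alternative that tested them. Over all single genes and alternatives, 438 values kept their direction and side of the threshold, 49 lost the call, 6 gained it and 13 turned in sign, none of the last called; the cause was not tested. The 6 Wnt genes higher became 3 with at least 10 counts in every library, where Rspo3, Wnt9b and Wnt5b are not tested, and 3 to 9 without 1 library; those lower, 0, became 1 by DESeq2 and 0 to 3 without 1 library. Of the further pathway genes, the 2 higher became 6 on library totals, 5 by DESeq2, 1 with the proliferation covariate and 0 to 11 without 1 library, and the 6 lower became 0 to 10 without 1 library. Among all genes, the 665 higher became 1048 on library totals, 1124 by DESeq2, 371 with the covariate and 115 to 2717 without 1 library. The 438 lower became 179 on library totals, 1115 by DESeq2 and 16 to 2498 without 1 library. Library totals move the median log2 fold change of all genes from 0.01 to 0.15.

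Signs turned for Fzd7 (-0.012 with DESeq2 size factors, -0.0013 with Gm26917 left out, -0.0083 by DESeq2, and -0.095 to 0.053 without 1 library), and with the covariate for Wnt9a (-0.28), Lrp5 (-0.042) and Lrp6 (-0.079). Without 1 library the log2 fold change was -0.027 to 0.36 for Wnt4, -0.073 to 0.36 for Wnt9a, -0.020 to 0.14 for Lrp6, -0.079 to 0.13 for Tcf7l1 and -0.052 to 0.16 for Wls.

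The columns carry letters, and the deviations of same-lettered libraries correlated at 0.245, 0.190 and 0.0809 for A, B and C. Meis1-OE C was nearer to YFP-CTRL B (0.249), and the remaining pairs of unlike letters correlated at -0.301 to -0.0275. No source states a pairing by letter, so the letters were not taken as a pairing in the main fit. With the letter as a replicate block all 6 Wnt genes stayed higher, 4 further pathway genes were higher, and 189 of all genes were lower.

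Depth limits the scarce genes: 28 of the 46 Wnt genes had over 3 counts in any library, and 24 lay outside the filter.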

Other observations

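The genes of planar cell polarity, the branch of Wnt signalling that orients cells within a sheet, held 1 gene that rose and 1 that fell. Of 9 genes listed 7 were tested, with 1 higher and 1 lower by edgeR, beside 4.14% and 2.73% of all tested genes. Prickle2 was at 28.8, 31.4 and 35.2 CPM in Meis1-OE against 11.2, 7.62 and 17.1 CPM in YFP-CTRL, and rose by 1.41 on the log2 scale (adjusted p = 0.0315 by edgeR). Its relative Prickle1 was at 37.6, 32.9 and 35.5 CPM against 81.0, 97.5 and 61.8 CPM, a log2 fold change of -1.18 (adjusted p = 0.0128 by edgeR). Neither pair of groups overlapped. Prickle2 did not pass when any 1 Meis1-OE library was left out, nor without YFP-CTRL library A or B (edgeR adjusted p 0.062 to 0.138), nor with the proliferation covariate (log2 fold change 1.07, adjusted p = 0.106), and Prickle1 did not pass without any 1 Meis1-OE library (0.0545 to 0.088).

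Of 11 further genes known as Wnt targets or as genes of Wnt-dependent brain endothelium, 5 were tested. By edgeR 0 rose and 1 fell (1 higher and 1 lower at an unadjusted p under 0.05), beside 4.14% and 2.73% of all tested genes. DESeq2 called 1 higher, Sox17, and 2 lower, Myc and Tnfrsf19, of 6 tested, beside 6.18% and 6.13% of all its tested genes. Sox17 and Tnfrsf19 are named after their values were seen. The gene that fell by edgeR was Myc, a growth regulator with many inputs besides Wnt, at 71.6, 60.9 and 64.4 CPM in Meis1-OE against 285, 189 and 126 CPM in YFP-CTRL. Its log2 fold change was -1.61 (adjusted p = 0.0201 by edgeR), with YFP-CTRL library C again the control nearest to Meis1-OE. With the proliferation covariate it was -0.90 (adjusted p = 0.0135 by edgeR). It did not pass when any 1 Meis1-OE library was left out, nor without YFP-CTRL library B (edgeR adjusted p 0.0788 to 0.118).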
